A study of Mus musculus with 24 samples.

Results

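Unexposed olfactory epithelium was described from the 6 no-odor control libraries among the 24 libraries of a mouse RNA-seq study, chosen as control replicates 1 to 3 of the AD table and of the OC table. The labels name an AD condition, with acetophenone and decanal, and an OC condition, with octanal and cis-3-hexenol. Each condition, with its own controls, is called a batch here. All mice were wild-type C57BL/6J males, 8 weeks old by the study description. Each was housed alone in an odor-free chamber, had 4 h of habituation, and then met filter paper for 90 min. In both control sets the paper was empty. In the 18 exposed libraries, used here only for comparison, it carried acetophenone, decanal, octanal, cis-3-hexenol or the binary mixture of the batch, with 3 libraries for each of these 6 groups. The tissue of all 8 groups was perfused with a chilled buffer containing cycloheximide, which halts translation, and RNA came from a detergent-cleared supernatant of the homogenate. The labels call the 3 mice of a group biological replicates. Because every AD control is from 1 batch and every OC control from the other, batch and mice cannot be told apart in any difference given here.

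The olfactory epithelium lines the dorsal and posterior nasal cavity. Its sensory neurons each choose 1 odorant receptor, a G protein-coupled receptor that signals through the G protein subunit encoded by Gnal, the adenylyl cyclase encoded by Adcy3 and a cyclic nucleotide-gated channel. They stand among sustentacular support cells, which are rich in enzymes that break down odorants and toxins, above basal stem cells that replace neurons throughout life. Bowman's glands and other nasal glands beneath them secrete mucus with odorant-binding proteins.

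The control libraries held 20730293 to 24802496 counts each. OC control 3 stood apart from its set before any gene was tested: its counts differed from those of OC controls 1 and 2 by a chi-square per degree of freedom of 112 and 87.6, against 16.7 between the latter pair and 8.77 to 18.2 among the AD controls. The library also held 6.56% of its counts in the gland list, against 2.13% and 2.41% in the other OC controls. The first principal component of the 6 libraries (44.5% of the variance) separated the sets. Results that rest on OC control 3 are given with and without it.

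Markers of the labelled tissue were present in every control library. Levels between genes are compared in TPM, a unit that divides counts by the length of the longest annotated transcript and gives every library the same total. Omp, which encodes the olfactory marker protein of mature sensory neurons, stood at 11534 ± 1251 TPM (SD, n = 6). Gnal was at 677 ± 144 TPM and the channel subunit gene Cnga2 at 539 ± 148 TPM. Gap43, a growth-cone gene of immature neurons, was at 468 ± 69.8 TPM. The support cell gene Cyp2g1 reached 2288 ± 617 TPM, and Krt5, a keratin of horizontal basal cells, 69.9 ± 5.36 TPM. Defining markers of neighboring tissue were low, while genes that their lists share with other cells were not. Vmn2r1, a vomeronasal receptor, had 9 counts over the 6 libraries, although the vomeronasal list summed to 488 to 610 TPM, most of it from Calr and Gnai2, which many cell types express. The muscle gene Acta1 was at 25.2 TPM in AD control 1 and between 1.52 and 2.20 TPM in the other 5. The olfactory bulb transcription factor gene Tbr1 was at 0.644 TPM, and the bulb list, which holds the glial water channel gene Aqp4 at 130 TPM, summed to 180 to 305 TPM. Bone was present throughout, with Bglap, the osteocalcin gene of osteoblasts, at 547 ± 251 TPM. Xist, which female cells transcribe from the inactive X, had 12 counts over all 6 libraries of these male mice.

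Of 21880 protein-coding genes, 13566 stood at 1 TPM or more in all 6 controls and 2522 had no count in any. The most abundant messages were secretory. Bpifa1, which encodes an antimicrobial protein of airway fluid, led with 22956 ± 1748 TPM, followed by the secretoglobin gene Scgb1c1 with 21929 ± 6964 TPM, Omp, the secretory gene Bpifb3 with 10582 TPM and Vmo1 with 9435 TPM. Enzymes of support cells and neurons were also among the top 20 genes, with Cbr2 at 7441 TPM, the glutathione transferase gene Gstm1 at 7013 TPM and the cytochrome P450 gene Cyp2a5 at 6405 TPM. Neuronal genes in the top 20 were Stoml3, a stomatin of olfactory cilia, at 5010 TPM and the tubulin gene Tuba1a at 5465 TPM. The order was not the same in every mouse. The odorant-binding protein gene Obp2a had a mean of 7570 TPM with an SD of 13007 TPM. Together the 20 genes held 14.0% to 16.4% of all TPM in 5 libraries but 23.7% in OC control 3. They were ranked by the mean of these same 6 libraries, so the larger share follows in part from the choice. Obp2a, Obp1b and the predicted genes Gm6619 and Gm14744 stood at 6979 TPM or less in 5 libraries. They reached 33634, 17624, 33207 and 17574 TPM, in that order, in OC control 3. TPM of the other genes are lowered in that library by the share these messages take. Gene tests therefore used library totals scaled by the trimmed mean of M-values (TMM), and levels below are given in CPM, counts relative to that scaled total.

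The sets differed at many genes. With edgeR's quasi-likelihood F-test and Benjamini-Hochberg adjustment, 6524 of 18719 tested genes (34.9%) were called at an adjusted p under 0.05, 3211 (17.2%) higher and 3313 (17.7%) lower in the OC controls. Most changes were small: the median fold of the called genes was 1.41, while 418 genes were over 2-fold higher and 150 over 2-fold lower. Groups of 3 and 3 libraries did not overlap for 48.5% of all tested genes, and 34.3% were both called and free of overlap. The plot of median changes by gene list sets out the groups.

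**Figure D1:**
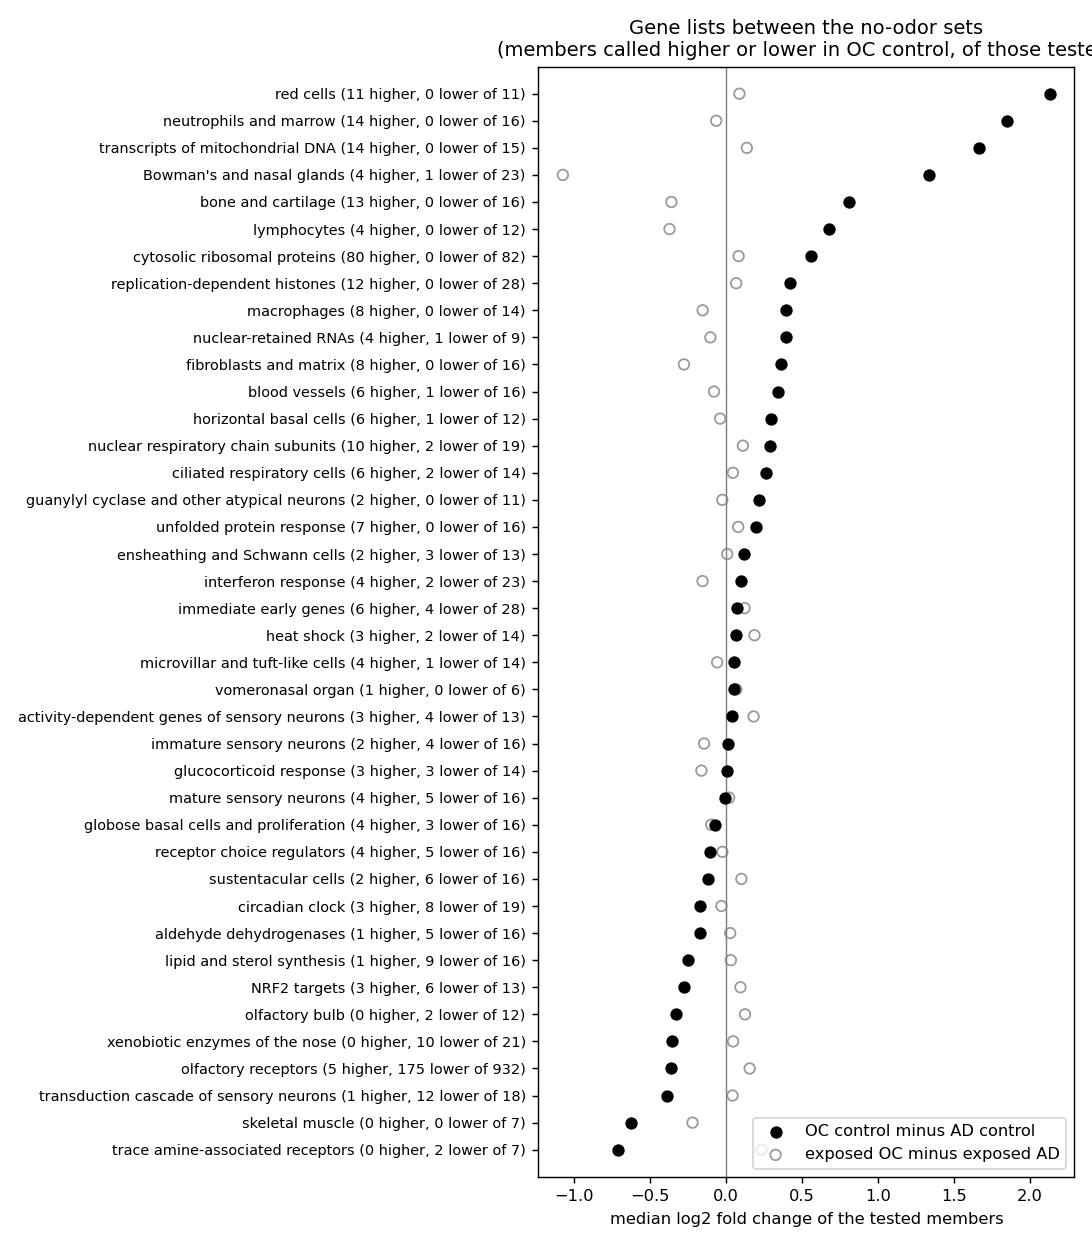
Median log2 fold change of the tested members of each gene list, for OC control minus AD control (black) and for the exposed libraries of the same batches, OC minus AD (open grey circles), with members called higher or lower between the controls in parentheses. Red cell, marrow and mitochondrial transcripts lie farthest to the right in the controls, at medians of 2.13, 1.85 and 1.66, and their exposed medians lie between -0.07 and 0.14.

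Red blood cell transcripts were higher in the OC controls. All 11 tested members of the list were called higher, against 17.2% of all genes, with a median log2 fold change of 2.13 against 0.00 over all genes. Hbb-bs, an adult beta-globin gene, stood at 213, 228 and 173 CPM in AD controls 1 to 3 and at 1701, 831 and 988 CPM in OC controls 1 to 3. The sets did not overlap, and OC control 1 was the highest library. The change was 5.73-fold (log2 fold change 2.52 ± 0.24 SE, adjusted p = 0.00013, edgeR). The alpha-globin gene Hba-a1 stood at 120, 140 and 113 CPM against 1002, 458 and 528 CPM, with a log2 fold change of 2.41 and the same highest library. The red cell membrane gene Slc4a1, which encodes an anion exchanger, had a log2 fold change of 2.13. The range of the summed list was 2457 to 3119 TPM in the AD controls and 7558 to 16790 TPM in the OC controls. Without OC control 3 all 11 were again called higher, with a median of 2.29. The part of blood held in the tissue was not tested. In these bulk samples, more cells of a type and more RNA per cell cannot be told apart.

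The 4 globin genes are shown by their promoters because they made up 4 of the 12 largest rises among called protein-coding genes with a mean count of at least 100, no overlap between the sets and no predicted-gene symbol. Genes outside these limits had larger values, among them the neutrophil gene Camp at 3.08 on the log2 scale, chosen after its value was seen, and the predicted gene Gm6619. Each sequence is the 250 bases before the annotated start, read on the gene's strand from RefSeq (GRCm38.p6). Capitals mark CCAAT, a box found in many promoters and long known in those of globin genes, or its reverse complement ATTGG.
Hbb-bs, chr7:103827929-103828178, minus strand: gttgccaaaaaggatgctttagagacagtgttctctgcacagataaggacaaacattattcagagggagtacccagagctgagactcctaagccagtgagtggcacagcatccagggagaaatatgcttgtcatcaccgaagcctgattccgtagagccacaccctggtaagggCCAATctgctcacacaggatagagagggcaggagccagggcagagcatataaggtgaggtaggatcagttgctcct
Hbb-bt, chr7:103813924-103814173, minus strand: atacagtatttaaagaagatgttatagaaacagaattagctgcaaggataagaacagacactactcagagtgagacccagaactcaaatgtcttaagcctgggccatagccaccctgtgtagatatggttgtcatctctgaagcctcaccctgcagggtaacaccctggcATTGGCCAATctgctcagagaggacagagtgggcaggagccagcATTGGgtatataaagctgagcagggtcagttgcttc
Hba-a1, chr11:32283422-32283671, plus strand: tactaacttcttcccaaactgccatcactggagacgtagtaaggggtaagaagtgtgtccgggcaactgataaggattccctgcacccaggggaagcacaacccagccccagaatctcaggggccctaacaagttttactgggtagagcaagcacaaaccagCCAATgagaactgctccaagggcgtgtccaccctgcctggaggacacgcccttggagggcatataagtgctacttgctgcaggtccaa
Hba-a2, chr11:32296242-32296491, plus strand: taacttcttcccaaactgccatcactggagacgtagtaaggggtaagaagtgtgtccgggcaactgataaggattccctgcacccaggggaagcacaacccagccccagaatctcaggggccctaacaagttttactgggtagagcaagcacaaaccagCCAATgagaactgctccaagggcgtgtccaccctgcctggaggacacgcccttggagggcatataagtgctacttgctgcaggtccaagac
All 4 held CCAAT, beginning 76, 75, 88 and 91 bases before the start in that order. The motif was present on either strand in 33.8% of 32851 RefSeq promoters of this length, and on the gene's strand in 19.1%. A match describes the letters only. The alpha pair and the beta pair are near-identical copies, so the split of counts between Hba-a1 and Hba-a2, and between Hbb-bs and Hbb-bt, is uncertain.

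Marrow and myeloid transcripts moved with the red cell genes. Over all genes, 17.2% were called higher and 17.7% lower. Of 16 tested neutrophil and marrow genes, 14 were called higher in the OC controls and none lower, with a median log2 fold change of 1.85. Ngp, which encodes a granule protein of developing neutrophils, was at 3.30, 6.45 and 4.37 CPM in the AD controls and at 31.4, 21.7 and 30.8 CPM in the OC controls. Each OC library was above each AD library (log2 fold change 2.57 ± 0.22 SE, adjusted p = 0.000114, edgeR). The alarmin gene S100a9 had a log2 fold change of 1.94. Ltf, which glands also make, had the highest level of the list and was not called: 166, 127 and 574 CPM against 136, 209 and 300 CPM. Platelet genes Ppbp and Pf4 were among the 12 largest rises, at 2.42 and 2.29 on the log2 scale. Macrophage genes were called higher for 8 of 14 and lower for none, with a median of 0.39, and for 4 with offsets for transcript length and GC content; the complement gene C1qb went from 23.8, 23.8 and 22.4 CPM to 47.4, 44.1 and 44.0 CPM. Lymphocyte genes were called higher for 4 of 12 and lower for none.

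Bone and matrix followed the same direction. The counts of this paragraph stand against 17.2% of all genes called higher and 17.7% called lower. Of 16 bone and cartilage genes, 13 were called higher in the OC controls and none lower (median 0.81), and fits that left a library out called 8 higher without AD control 1 or AD control 3, 9 without AD control 2, OC control 1 (with 1 lower) or OC control 3, and 11 without OC control 2. Bglap stood at 69.0, 69.4 and 60.0 CPM against 197, 133 and 139 CPM, with no overlap (log2 fold change 1.24; Bglap and Bglap2 are near-identical copies). Spp1, the osteopontin gene, stood at 365, 419 and 395 CPM against 775, 617 and 829 CPM. Fibroblast and matrix genes were called higher for 8 of 16 and lower for none, with a median of 0.36. Sparc, a matrix protein gene that is also active in bone, had a log2 fold change of 0.86. Vessel genes were called higher for 6 of 16 and lower for 1. These lists moved with the red cell and marrow genes in the same 3 mice, and the part that tissue other than epithelium has in the other differences was not tested.

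Transcripts of mitochondrial DNA took a larger share of the OC controls. The share was 0.272%, 0.233% and 0.276% of counts in AD controls 1 to 3 and 0.872%, 0.915% and 0.595% in OC controls 1 to 3. The lowest OC library was OC control 3, and the sets did not overlap (exact permutation test, two-sided, p = 0.1, which is the smallest p that 3 against 3 allows; 0.12 after adjustment over 6 classes). Of 15 tested mitochondrial transcripts, 14 were called higher, against 17.2% of all genes, with a median log2 fold change of 1.66. mt-Nd6, which encodes a subunit of respiratory complex I and is the lone protein gene on the light strand, stood at 36.6, 34.2 and 41.4 CPM against 171, 169 and 142 CPM. That was 4.30-fold, with a log2 fold change of 2.10 ± 0.10 SE and an adjusted p of 2.15e-05 by edgeR. The 2 ribosomal RNAs of the mitochondrion moved alike, with mt-Rnr1 at 2.20 and mt-Rnr2 at 2.11 on the log2 scale. Nuclear genes for the same respiratory complexes changed less. Of 19 tested, 10 were called higher and 2 lower, with a median of 0.29. Cox6c, a small subunit of cytochrome oxidase, went from 94.4, 92.6 and 91.6 CPM to 161, 160 and 159 CPM. The abundant ATP synthase gene Atp5b was at 1391, 1406 and 1453 CPM against 1106, 1196 and 1431 CPM and was not called, but was called lower without OC control 3.

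Genes of the cytosolic ribosome were higher nearly as a block. Of 82 tested, 80 were called higher in the OC controls, against 17.2% of all genes, and none lower. The libraries of all 82 were free of overlap between the sets, against 48.5% of all genes. The size was modest, with a median log2 fold change of 0.55. Rpl18 stood at 93.5, 88.6 and 92.7 CPM against 156, 149 and 155 CPM. Rplp0, the stalk protein gene and most abundant of the list, stood at 348, 353 and 342 CPM against 414, 400 and 381 CPM and was not called, although it was without OC control 3. These are short messages. After offsets for transcript length and GC content, 44 were called higher and 1 lower, and the median of the list was 0.23. Histone genes, short as well, were called higher for 12 of 28 and lower for none, with a median of 0.42. After the offsets 4 histone genes were called higher and 1 lower, with a median of 0.22, and without AD control 2 there were 6 higher.

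**Figure D2:**
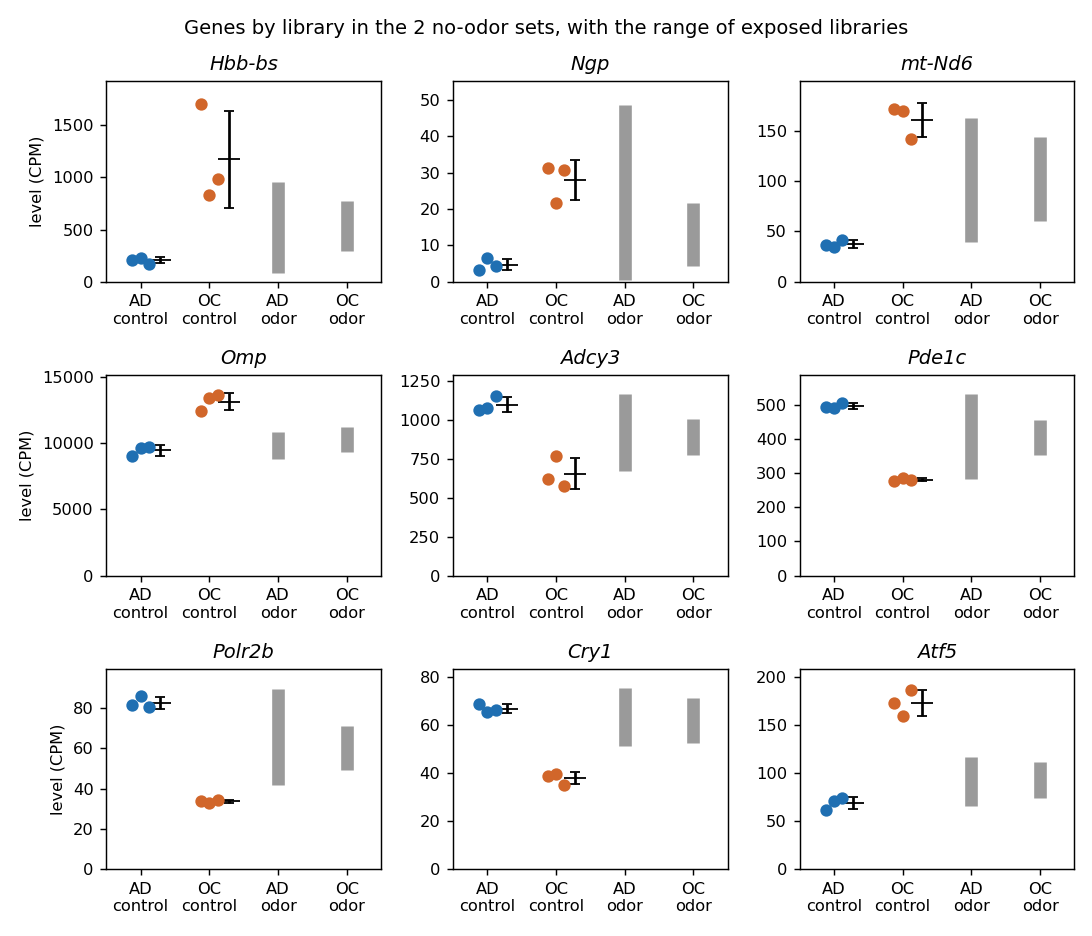
Levels in CPM of 9 genes in each AD control (blue) and OC control (orange) library, with the mean and SD of each set beside the points and the range of the 9 exposed libraries of each batch as grey bars. The control sets do not overlap for any of the 9, and for Omp, Cry1, Polr2b and Atf5 the OC controls lie outside the range of all 18 exposed libraries.

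Genes that turn odorant binding into current were mostly lower in the OC controls. Of 18 tested members of the transduction cascade, 12 were called lower, against 17.7% of all genes, and 1 was called higher; the median log2 fold change was -0.39. Without AD control 3, 7 were called lower. Adcy3 stood at 1060, 1075 and 1151 CPM in AD controls 1 to 3 and at 619, 766 and 573 CPM in OC controls 1 to 3. No OC library reached the AD range (log2 fold change -0.75 ± 0.11 SE, adjusted p = 0.000934, edgeR). Pde1c, the phosphodiesterase gene of olfactory cilia, stood at 493, 491 and 505 CPM against 277, 286 and 278 CPM, with a log2 fold change of -0.82. All 3 channel subunit genes were called lower, with log2 fold changes of -0.46 for Cnga2, -0.43 for Cnga4 and -0.41 for Cngb1. Ano2, the chloride channel gene that amplifies the current, had -0.79, and Gnal -0.30. The call of Gnal was lost without any one AD control or without OC control 1, and those of Cnga2 and Cnga4 without AD control 3. Ano2, Cnga4 and Cngb1 were named after their values were seen, to complete the cascade. The exception was Gng13, the G protein gamma subunit gene, at 262, 263 and 251 CPM against 433, 492 and 439 CPM (log2 fold change 0.82, and 0.30 after the length and GC offsets). Neither Gnb1, at 0.13, nor Stoml3, at -0.12, was called.

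Markers of mature neurons did not share one direction. Omp was higher in the OC controls, at 12398, 13414 and 13600 CPM against 8994, 9651 and 9706 CPM. The lowest OC library was above the highest AD library, and the log2 fold change was 0.48 ± 0.05 SE (adjusted p = 0.000246, edgeR). Ebf3, a transcription factor gene of the lineage, was also higher, at 0.65. Umodl1 was lower, at 531, 507 and 538 CPM against 354, 374 and 353 CPM. In all, 4 of 16 members were called higher and 5 lower, against 17.2% and 17.7% of all genes. Their median was -0.01 and moved to 0.05 without OC control 3. Immature neurons were as mixed, with 2 of 16 called higher and 4 lower: the collapsin response gene Dpysl5 had a log2 fold change of -1.01 and the stathmin gene Stmn3 of 0.76. Gap43, at 291, 302 and 255 CPM against 361, 274 and 314 CPM, overlapped and was not called.

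Olfactory receptor genes held less of the OC controls. They took 0.543%, 0.515% and 0.548% of counts in AD controls 1 to 3 and 0.394%, 0.434% and 0.330% in OC controls 1 to 3, with no overlap and with OC control 3 the lowest (exact permutation test, p = 0.1, the smallest possible; adjusted 0.12). Of 1135 receptor genes, 1104 had a count and 932 were tested. Among those tested 175 (18.8%) were called lower, close to the 17.7% of all genes, and 5 were called higher, against 17.2% of all genes. The median log2 fold change was -0.36, and -0.21 after the length and GC offsets. Without AD control 3, 101 were called lower and 1 higher, and without AD control 1, 116 and 1; with the length and GC offsets there were 106 and 6. Without OC control 3, 134 were called lower and 2 higher. Few reads fell on most receptors, with a median of 1.73 TPM over those tested, which limits what single receptors could show.

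The repertoire kept its order. Across the 932 receptors, mean TPM in the 2 sets had a Spearman rho of 0.962, given as a description across genes, which are not independent replicates. Of the 10 most abundant receptors 8 were shared, and of the 100 most abundant 90. Receptor expression was uneven, with 14.8% of receptor TPM in 10 genes and 48.8% in 100. Olfr727 was the highest at 113 ± 36.8 TPM, at 169, 151 and 146 CPM against 108, 113 and 91.0 CPM, and was lower in every OC library (log2 fold change -0.58, adjusted p = 0.00122, edgeR). Olfr1507, the next, stood at 82.6, 73.2 and 72.0 CPM against 96.3, 75.7 and 62.4 CPM and overlapped. Olfr1257 showed one of the largest falls, from 65.5, 51.1 and 42.9 CPM to 22.0, 26.6 and 20.9 CPM (log2 fold change -1.20). Olfr1463 and Olfr1395 were lower by similar steps, with log2 fold changes of -0.98 and -0.96. The 5 receptors called higher were Olfr95, Olfr2, Olfr652, Olfr732 and Olfr1183, all with mean levels between 0.405 and 2.14 TPM. Each of these calls was lost in 3 to 5 of the 6 fits that left a library out, AD controls and OC controls alike. Olfr2, with 2.10, 1.91 and 2.15 CPM against 4.00, 3.11 and 2.64 CPM, did not overlap, while Olfr652 did. Trace amine-associated receptors, a second receptor family of the nose, were called lower for 2 of 7 tested, Taar6 and Taar7f, and higher for none. Over all genes, 17.7% were called lower. The log2 fold changes of the 7 ran from -1.13 to -0.40, with a median of -0.71. With the length and GC offsets 4 were called lower, with a median of -0.98. Fits that left a library out called 1 to 3 lower. The call of Taar7f held only without OC control 2.

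**Figure D3:**
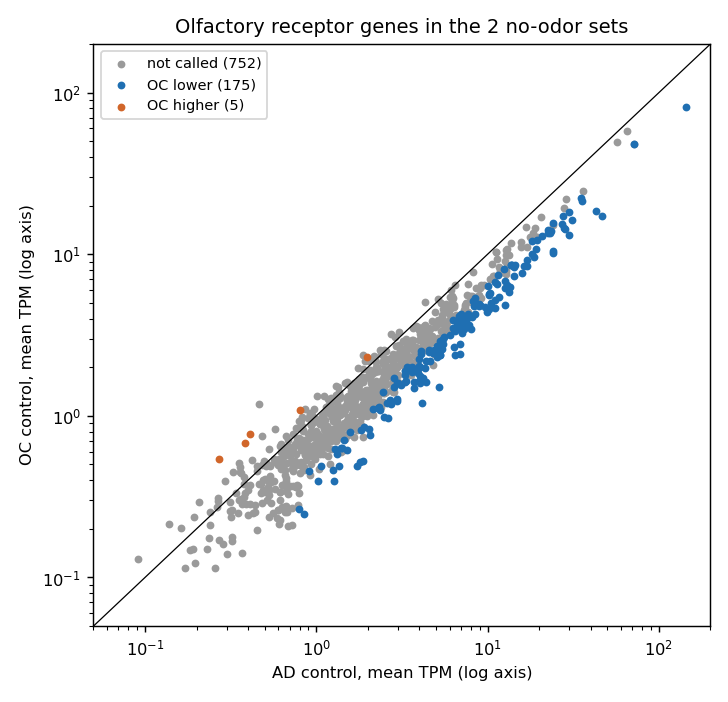
Mean TPM of each of the 932 tested olfactory receptor genes in the AD controls (horizontal, log axis) and OC controls (vertical, log axis), with the line of equal level. Most points lie below the line, the 175 called lower in blue, the 5 called higher in orange near the low end, and the order of the genes is much the same in both sets.

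Several regulators gave the clearest separations. Atf5, the stress-linked transcription factor gene that takes part in receptor choice, stood at 62.1, 71.1 and 74.4 CPM in the AD controls and 173, 159 and 187 CPM in the OC controls. Even the lowest OC library was over 2-fold above the highest AD library (log2 fold change 1.32 ± 0.09 SE, adjusted p = 7.32e-05, edgeR). Mllt6, Ddx17 and Kmt2a, which encode a chromatin reader partner, an RNA helicase and a histone methyltransferase, had log2 fold changes of 1.28, 1.20 and 1.06. In the other direction, Polr2b, the gene for the second-largest subunit of RNA polymerase II, fell from 81.3, 86.0 and 80.4 CPM to 33.7, 33.1 and 34.3 CPM. The libraries of each set lay close together, far from those of the other (log2 fold change -1.29 ± 0.07 SE, adjusted p = 2.15e-05, edgeR). Rrn3, a factor for RNA polymerase I, stood at 47.6, 48.6 and 46.0 CPM against 20.9, 22.5 and 20.4 CPM. The transcription factor gene Sp2 had a log2 fold change of -1.26, the gamma-tubulin complex gene Tubgcp2 -1.22 and the cilium gene Cfap206 -1.19. The retromer gene Vps35, the vesicle gene Scfd1 and Qrich1 had log2 fold changes of -0.90, -0.88 and -0.97, and the helicase gene Mtrex was called lower with them. Among receptor choice regulators as a list, 4 of 16 were called higher and 5 lower, against 17.2% and 17.7% of all genes. Kdm1a, the histone demethylase gene, had -0.54. Pakap, Pcdhgb6, Camk2b and the receptors Olfr1243, Olfr1242 and Olfr1380 complete the 12 largest falls, with log2 fold changes from -1.36 to -1.16.

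Of 19 tested clock genes, 8 were called lower and 3 higher in the OC controls, against 17.7% and 17.2% of all genes. The lower calls numbered 7 or 8 with any library left out, and the higher calls 0 (without AD control 2) to 4. Cry1, a core repressor, stood at 68.7, 65.3 and 66.1 CPM against 38.9, 39.7 and 34.9 CPM, with a log2 fold change of -0.82 (adjusted p = 0.000119, edgeR). Nr1d1 and Cry2 were also lower, at -0.66 and -0.45. Dbp, a direct output gene, stood at 180, 183 and 180 CPM against 186, 211 and 223 CPM and was not called.

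Metabolic enzymes leaned lower in the OC controls. Of 21 xenobiotic enzyme genes of the nose, 10 were called lower, against 17.7% of all genes, and none higher, with a median of -0.35. Without AD control 2 or AD control 3, 6 were called lower, and without OC control 1, 3 were called higher beside 10 lower. Cyp2f2, a P450 gene of airway epithelium, stood at 3162, 3420 and 3424 CPM against 1586, 2352 and 2187 CPM, and no OC library reached the AD range (log2 fold change -0.71). Fmo1, a flavin monooxygenase gene, had -0.78. The most abundant of the list did not differ by the test, with Gstm1 at 0.02 and Cyp2a5 at 0.04. Aldehyde dehydrogenase genes were called lower for 5 of 16 and higher for 1, and lower for 11 without OC control 3; Aldh6a1 had a log2 fold change of -0.95. Lipid and sterol synthesis genes were called lower for 9 of 16 and higher for 1, with 5 lower under the length and GC offsets or without AD control 1, AD control 3 or OC control 2, and 4 without AD control 2. Acly, which makes cytosolic acetyl-CoA, stood at 176, 177 and 181 CPM against 102, 107 and 113 CPM. Targets of NRF2, the oxidative stress factor, were called lower for 6 of 13 and higher for 3, with 3 lower and none higher without AD control 3; G6pdx, the entry gene of the pentose phosphate pathway, had -0.86.

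Lists of support, basal and other cell types are read against the 17.2% of all genes called higher and 17.7% called lower, and several lie near those shares. Sustentacular genes were called lower for 6 of 16 and higher for 2, with 2 lower without AD control 2 or AD control 3, and 3 without AD control 1 or with the length and GC offsets. Cyp2g1 was at 2097, 2243 and 2344 CPM against 1342, 1789 and 1776 CPM (log2 fold change -0.45, not called without AD control 2 or AD control 3), while the mucin gene Muc2 was higher, at 0.82. Horizontal basal cell genes were called higher for 6 of 12 and lower for 1, and higher for 2 with the length and GC offsets. Krt5 went from 62.5, 66.8 and 58.5 CPM to 76.7, 72.1 and 81.9 CPM, a call that was lost without AD control 1 or AD control 3 and with the length and GC offsets. Globose basal and proliferation genes were called higher for 4 of 16 and lower for 3; Mki67, a mark of dividing cells, had 0.94 and the replication gene Mcm2 -0.64. Ciliated respiratory genes were called higher for 6 of 14 and lower for 2, or for 2 and 1 with the length and GC offsets. Microvillar and tuft-like genes were called higher for 4 of 14 and lower for 1, and ensheathing genes higher for 2 of 13 and lower for 3. Neurons with guanylyl cyclase and other atypical neurons had 2 of 11 called higher and none lower. The interleukin gene Il33 stood at 487, 503 and 479 CPM against 302, 347 and 305 CPM, without overlap (log2 fold change -0.62). Vomeronasal genes had 1 of 6 called higher. Olfactory bulb genes had 2 of 12 called lower, and 7 without OC control 3. No bulb gene was called without AD control 1, without AD control 3 or with the length and GC offsets. The 7 tested muscle genes had a median of -0.63, with Acta1 at an adjusted p of 0.0773 (edgeR). RNAs that stay in the nucleus were called higher for 4 of 9 and lower for 1.

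Immediate early genes respond to activity within the hour. Of 28 immediate early genes, 6 were called higher and 4 lower, 35.7% against 34.9% of all genes, with a median of 0.07. The counts of this paragraph are read against 17.2% of all genes called higher and 17.7% lower, and several lie near those shares. Fos stood at 7.42, 11.3 and 12.95 CPM against 23.3, 5.30 and 6.14 CPM. OC control 1 was the highest and OC control 2 the lowest of the 6 (log2 fold change 0.15 ± 0.48 SE, adjusted p = 0.842, edgeR). Nr4a1 also had OC control 1 highest and OC control 2 lowest, at 24.2, 23.9 and 26.7 CPM against 39.8, 16.3 and 20.0 CPM. Egr1 stood at 36.3 CPM in OC control 1 and between 15.1 and 28.7 CPM in the other 5, and without OC control 1 all 3 of these genes were called lower, Fos at -0.88, Nr4a1 at -0.45 and Egr1 at -0.73 on the log2 scale. In that fit 7 members of the list were called lower and 5 higher, and without AD control 2 there were 1 lower and 5 higher. The slower activity genes of sensory neurons were called higher for 3 of 13 and lower for 4. Kirrel2, an adhesion gene set by neuronal activity, stood at 309, 299 and 329 CPM against 646, 258 and 274 CPM, again with OC control 1 apart. Heat shock genes were called higher for 3 of 14 and lower for 2, unfolded protein response genes higher for 7 of 16 (3 without AD control 1 or AD control 3), interferon genes higher for 4 of 23 and lower for 2, and glucocorticoid genes higher for 3 of 14 and lower for 3. Sgk1 and the metallothionein gene Mt2, members of the last list, went opposite ways, at -0.63 and 0.67, and Mt2 was not called with the length and GC offsets.

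Gland genes spread widely between the mice of each set. Genes over 2-fold apart within a set numbered 24 of 10335 named genes at 10 CPM or more in the AD controls and 77 of 10345 in the OC controls, and 19 of the 24 were highest in AD control 3 and 47 of the 77 in OC control 3. Obp1a, an odorant-binding protein gene, stood at 211, 0.552 and 1507 CPM in AD controls 1 to 3 and at 76.6, 730 and 6602 CPM in OC controls 1 to 3. AD control 2 was nearly devoid of it and OC control 3 richest. Lcn11, a lipocalin gene, had the same order, at 115, 0.297 and 882 CPM and at 37.1, 308 and 3037 CPM. Bpifb9b broke it, with AD control 1 the highest of its set at 1551 CPM, and OC control 2 lowest of its set at 50.5 CPM. Mup4, Mup5, Lcn3, Lcn4, Dmbt1 and Car6 were among the 10 widest in at least 1 set. Of 23 gland genes, 4 were called higher and 1 lower, against 17.2% and 17.7% of all genes, so the higher calls lie near that share. The list's median of 1.33 became -0.74 without OC control 3. Scgb1c1 was among the members called higher, at 3071, 3164 and 2839 CPM against 5925, 6639 and 6060 CPM (log2 fold change 1.04, adjusted p = 7.32e-05, edgeR). So were Bpifa1, at 0.40 (not called with the length and GC offsets), and the gel-forming mucin gene Muc5b, at 1.20. Gm6619, a predicted gene among the 20 of highest level, had the largest log2 fold change of the genes named here, at 8.04 (adjusted p = 0.0225, edgeR), with 0.972, 0 and 44.3 CPM against 310, 112 and 11490 CPM. It was highest in OC control 3, and its call was lost without AD control 1 or AD control 2 and in a robust fit. Pnliprp1, a lipase-related gene of the gland list that was also called higher, rested on that mouse as well. It stood at 0.311, 0.552 and 0.371 CPM against 0.743, 0.729 and 42.2 CPM, and it was called in 2 of 6 fits that left a library out, those without OC control 1 or OC control 2.

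**Figure D4:**
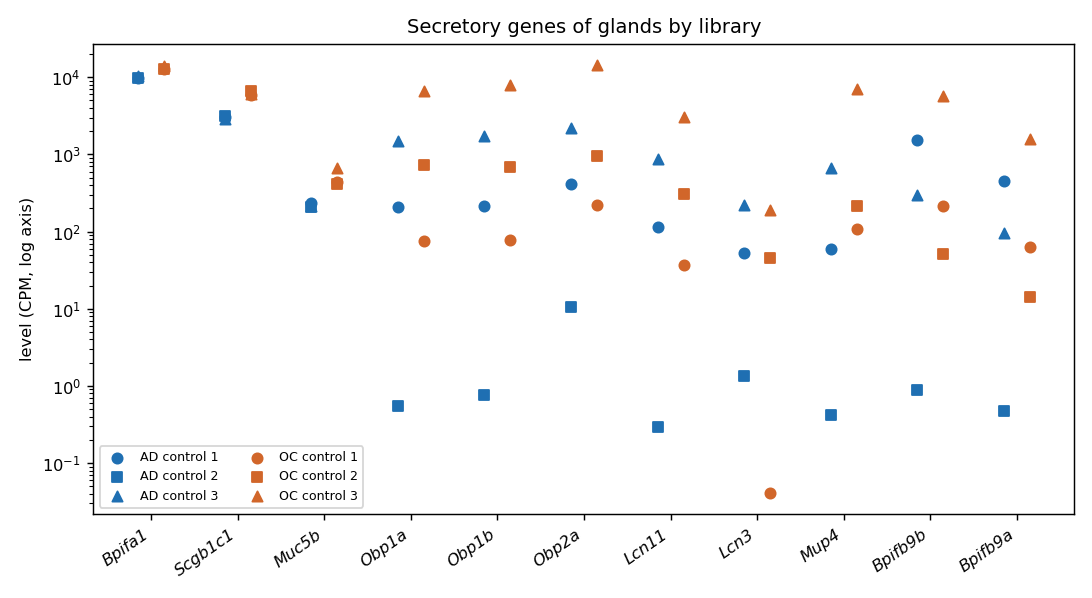
Levels in CPM on a log axis of 11 secretory genes in AD controls (blue) and OC controls (orange), with a symbol for each replicate number. Bpifa1, Scgb1c1 and Muc5b lie close within a set, while the odorant-binding, lipocalin, major urinary and Bpifb9 genes spread widely, as Obp1a does from 0.552 to 6602 CPM, with AD control 2 the lowest AD library for each.

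Transcript length ran through the comparison. Across 18272 genes with a length, the log2 fold change had a Spearman rho of -0.174 with length and 0.157 with GC content, as a description across genes. The trend was not particular to the controls: between the exposed libraries, OC minus AD, the rho with length was -0.196. Median length was 2506 bases for genes higher in the OC controls, 3766 for genes lower and 3119 for all. With offsets for length and GC fitted in each library, 5202 genes were called instead of 6524. Among the genes printed above, the direction of Polr2b, Adcy3, Omp, Atf5, mt-Nd6 and Hbb-bs was kept, at -1.15, -0.79, 0.41, 1.15, 1.78 and 2.01 on the log2 scale.

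Exposed mice of the same batches gave fewer calls. Between the exposed libraries, OC minus AD, 2101 of 19709 genes (10.7%) were called, 1108 (5.62%) higher and 993 (5.04%) lower, with a median fold of 1.14; the odorants differ between these groups as well. No library is shared between this comparison and that of the controls. Of 3205 genes higher in the OC controls and tested in both, 469 were also called higher in the exposed comparison, which is 14.6% of the control calls and 42.8% of the 1097 exposed calls in that direction. Their median log2 fold change was 0.53 in the controls and 0.04 in the exposed libraries. For the 3312 lower genes, 264 were called lower in both, 7.97% of the control calls and 27.0% of the exposed calls, with medians of -0.47 and -0.02. Calls in the opposite direction numbered 106 of the higher genes (3.31%, against 5.24% of all genes in these fits). They numbered 79 of the lower genes (2.39%, against 5.87%). Calls in the same direction stood against 5.87% of all genes for the higher and 5.24% for the lower genes. Receptors went the other way in exposed mice, with 99 of 977 called higher and 6 lower. The difference of the 2 differences, which shares the control libraries with the first comparison, was called for 6905 of 20018 genes (34.5%), 3728 (18.6%) positive and 3177 (15.9%) negative.

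The exposed batches were not uniform, and their groups fell along the same genes. Over the 3211 genes higher in the OC controls, the acetophenone group was the lowest of the 6 exposed groups for 74.3%, against 27.1% of genes that were not called, and octanal for 8.28%. Over the 3313 genes lower in the OC controls, acetophenone was the highest for 75.2%, against 19.5% of genes not called. Exposed libraries took no part in choosing these genes. The share of mitochondrial transcripts showed the order plainly. It averaged 0.260% ± 0.0237 (SD over 3 mice) without odor in the AD batch and 0.297% ± 0.0339 with acetophenone, 0.417% ± 0.0392 with octanal, and 0.692% to 0.808% in decanal, both mixtures, cis-3-hexenol and the OC controls. Red cell transcripts were at 0.103% in the AD controls, 0.0829% with acetophenone, 0.148% with octanal and 0.355% in the OC controls. Polr2b, on a scale over all 24 libraries, stood at 81.6 ± 2.96 CPM in the AD controls, 86.0 ± 3.47 with acetophenone, 69.6 ± 2.27 with octanal, 44.6 to 59.7 in the other exposed groups and 33.9 ± 0.784 in the OC controls. The AD controls thus lay beside one exposed group of their own batch and apart from the other 2. The OC controls held the highest group mean of Atf5, Kmt2a, Omp and Scgb1c1 and the lowest of Adcy3, Pde1c, Polr2b and Cry1 among all 8 groups. These genes were called between the control sets, so such ranks largely follow from the choice. The OC controls were the highest of the 8 groups for 79.2% of all genes called higher in them, and the lowest for 84.9% of those called lower. Receptors as a class were lowest in the OC controls too, at 0.386% ± 0.0525, against 0.478% to 0.555% in the other 7 groups.

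**Figure D5:**
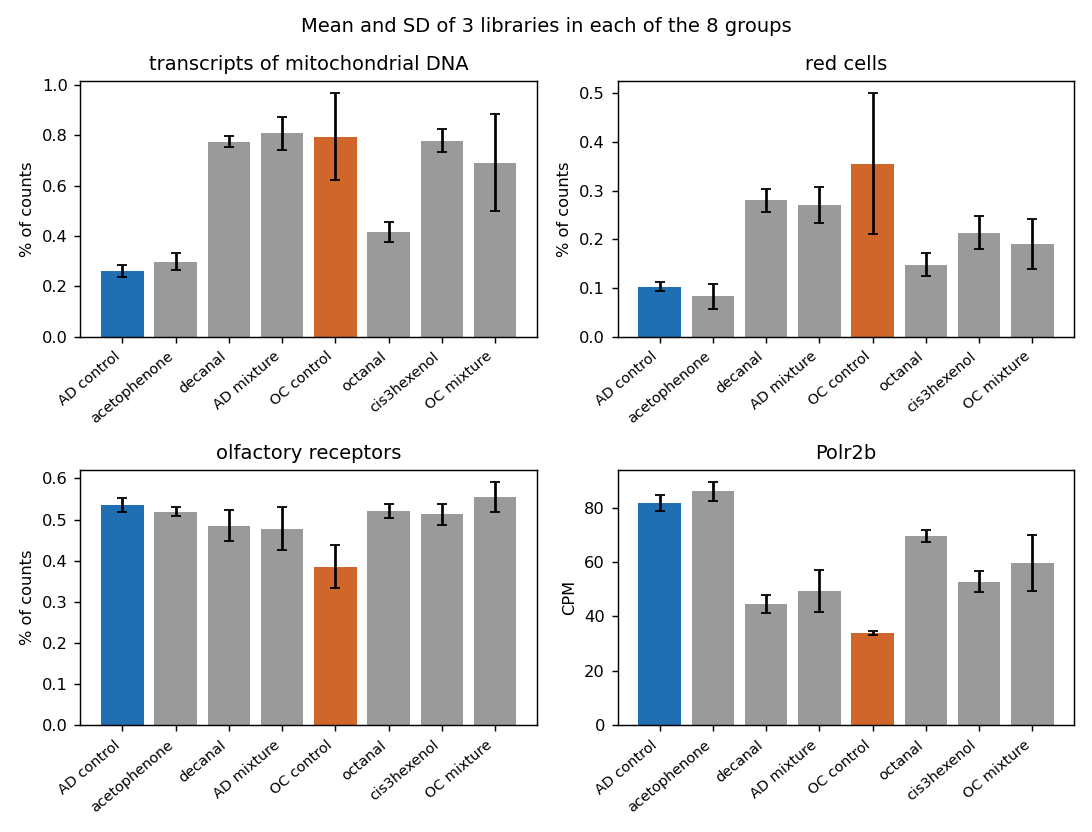
Mean and SD of 3 libraries in each of the 8 groups for the share of counts in mitochondrial, red cell and olfactory receptor transcripts (percent) and for Polr2b (CPM), with AD control in blue, OC control in orange and exposed groups in grey. Acetophenone stands beside the AD controls in the mitochondrial, red cell and Polr2b panels, octanal lies between, and the OC controls have the lowest receptor share and Polr2b level.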

How the data were processed

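RNA-seq of mouse olfactory epithelium was deposited as 1 table per batch. The values are expected counts per gene, estimated counts that the authors deposited and that need not be whole (12.8% of AD and 12.6% of OC values were not), and they were rounded here. The submitters' processing notes name STAR 2.7.10b, Salmon 1.10.1, R 4.4.2 and GRCm39, with no role given. Gene names and lengths came from GENCODE M21. Identifiers without a name there held 0.319% of counts. Strand handling in the counting is not given in the sources used here.

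Genes were kept with edgeR 4.0.16 filterByExpr (R 4.3.3), scaled by TMM and tested two-sided with the quasi-likelihood F-test, AD and OC controls as groups, with Benjamini-Hochberg adjustment at 0.05. Exposed libraries and the difference of differences were fitted likewise. The SE printed with a log2 fold change was derived from the test, as its absolute value divided by the square root of F. DESeq2 1.42.0, offsets for length and GC, other filters, a replicate block and leaving out each library were alternatives. TPM used the longest transcript. On simulated counts of 18719 genes for the control comparison, 83% of 2-fold and 99% of 4-fold changes were called. Of 208 calls there, 26 were false, a larger part than the 0.05 of the threshold. The simulated exposed comparison had 9 false among 207 calls, and the difference of differences 9 among 183. Genes were named by size and p-value within the comparison and by p-value and level within each list; Cnga4, Cngb1 and Ano2 were added after their values were seen, and 1 gene the rule named is not reported here. The members and lists were chosen with earlier results of these data known. P-values measure the spread between these mice.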

Additional observations from a re-analysis of the deposited data

Results flagged for a closer look

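The OC minus AD difference of the controls differed from the OC minus AD difference of the exposed libraries at 6905 of 20018 genes (edgeR's quasi-likelihood test of the interaction, Benjamini-Hochberg adjustment). The control libraries are the same as in the comparison of the control sets. Of the genes named by rule and reported here, 37 were called. Most of them were chosen as the largest differences between the control sets, which enter this value, or by the value itself, so their number follows from the choice. Positive values mean a higher OC minus AD difference in the controls than in the exposed mice.

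The positive values were 5.99 for Pnliprp1, 2.48 for Ngp, 2.40 for Hbb-bs, 2.39 for Hba-a2, 2.37 for Hbb-bt, 2.32 for Hba-a1, 2.28 for Slc4a1, 2.18 for Pf4, 2.13 for mt-Nd3, 2.06 for mt-Nd6, 2.03 for Ppbp, 1.38 for Mllt6, 1.27 for Ddx17, 1.26 for Atf5, 1.11 for Kmt2a, 0.44 for Omp, 0.34 for Gap43, 0.26 for Krt5. The value of Pnliprp1 rests on OC control 3. The negative values were -1.56 for Pakap, -1.40 for Olfr1243, -1.38 for Olfr1257, -1.34 for Polr2b, -1.25 for Camk2b, -1.14 for Tubgcp2, -1.13 for Olfr1242, -1.13 for Sp2, -1.06 for Rrn3, -1.05 for Pcdhgb6, -1.04 for Olfr1380, -1.01 for Mtrex, -0.99 for Vps35, -0.92 for Scfd1, -0.89 for Qrich1, -0.88 for Nr4a1, -0.82 for Cfap206, -0.66 for Il33, -0.42 for Cyp2g1. Groups here hold 3 libraries, so single libraries were not tested as outliers.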

How the results depend on the processing

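Calls between the control sets numbered 6524, 5202 with length and GC offsets, 6457 with DESeq2, 6486 with DESeq2 size factors, 6842 without a filter and 8122 with all 24 libraries in the fit. Leaving out 1 library gave 4473 to 6555 calls, 1375 to 2453 for the exposed libraries (2101 with all, 1375 without octanal 3) and 5913 to 7121 for the difference of differences. With length and GC offsets the exposed libraries gave 1260 calls, 687 higher and 573 lower; the cause was not tested. Without a filter the exposed calls split into 1703 higher and 957 lower, and the difference of differences into 2993 and 3824. The difference in share of counts, in percentage points, ran from -0.174 to -0.122 for receptors and 0.474 to 0.633 for mitochondrial transcripts. It ran from 0.194 to 0.253 for ribosomal proteins, 0.169 to 0.297 for red cells and 0.406 to 2.62 for glands. For the 20 genes with most counts it ran from 0.897 to 1.15. Lists with at least 50% of tested members called one way numbered 11, 8 with the offsets, and 5 (without AD control 3) to 16 (without OC control 3) with a library left out. The replicate block gave 6534 calls, 3196 higher and 3338 lower. The labels do not say that numbers pair mice, and numbers were not taken as pairs. Deviations from the mean of each set correlated at 0.011, 0.101 and 0.273 between same-numbered libraries. Between libraries of different number they correlated at -0.299 to 0.217. Subtracting the means ties these values together, so they cannot decide a pairing. List medians moved by more than the spread in 31 of 246 fits with a library left out and for 15 of 41 lists with the length and GC offsets. The share alternative over nuclear genes gave no value for mitochondrial transcripts. Low counts limit most single receptors, and 3 mice a set cannot reach a permutation p under 0.1.

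Among genes named in the report, the sign of the log2 fold change between the control sets moved for some that were not called. Cbr2 was called lower with the length and GC offsets, and Fos and Nr4a1 without OC control 1. Among list members not named there, some called genes turned with the offsets, such as S100a5 from 0.41 to -0.20 (-0.22 with the replicate block too) and Nrn1l from 0.54 to -0.045 (-0.051 with the block too). With the length and GC offsets, the value was -0.24 for Cbr2, -0.015 for Gap43, -0.23 for Gstm1, -0.033 for Rplp0. With the length and GC offsets with replicate block, the value was -0.24 for Cbr2, -0.019 for Cyp2a5, -0.16 for Fos, -0.021 for Gap43, -0.24 for Gstm1, -0.057 for Nr4a1, -0.033 for Rplp0. With the replicate block, the value was -0.13 for Fos, -0.063 for Nr4a1. With 1 library left out, the log2 fold change ran for Acta1 from -2.69 to 0.073, Bpifb9b from -2.20 to 3.78, Car6 from -3.78 to 3.12, Cyp2a5 from -0.18 to 0.24, Dmbt1 from -2.90 to 0.59, Egr1 from -0.73 to 0.021, Fos from -0.88 to 0.49, Gstm1 from -0.060 to 0.069, Kirrel2 from -0.22 to 0.56, Lcn11 from -0.95 to 4.30, Lcn3 from -2.07 to 1.52, Lcn4 from -2.02 to 1.25, Ltf from -0.78 to 0.56, Mup4 from -0.59 to 6.36, Mup5 from -2.44 to 5.73, Nr4a1 from -0.45 to 0.26, Obp1a from -0.51 to 4.55, Obp2a from -0.57 to 4.62, Olfr1507 from -0.13 to 0.18. The cause was not tested.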
